A study of Mus musculus with 6 samples.

Results

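The solute carriers of the Slc1, Slc2, Slc3, Slc5, Slc6, Slc7, Slc36, Slc38 and Slc43 families move amino acids, sugars and related small molecules across cell membranes. Every row of the deposited count table whose symbol belongs to one of these 9 families was taken, which gave 88 of 23420 genes. Of these, 74 passed the filter on low counts and were tested. The 14 that did not had between 2 and 30 counts each over all libraries (Slc1a7, Slc2a7, Slc36a3, Slc38a8, Slc38a11, Slc5a4a, Slc5a4b, Slc5a5, Slc5a7, Slc6a2, Slc6a3, Slc6a5, Slc6a14 and Slc7a15). The symbols also caught 2 rows that encode no transporter of these families, the pseudogene Slc2a4rg-ps and Slc7a6os, a gene named for the strand opposite Slc7a6. They are counted among the 88.

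The study sequenced polyadenylated RNA from cells sorted out of the kidneys of mouse embryos at day 18.5 of gestation. Wild-type females had been mated with males heterozygous for a Six2-GFP transgene, in which green fluorescent protein marks the cap mesenchyme, the nephron progenitor population. GFP-positive cells (Six2-high, n = 3 libraries) were compared with GFP-negative cells (Six2-low, n = 3 libraries) in 3 preparations, each with 1 library of either fraction, and RNA was purified with a TRI or a Norgen kit. By the sample titles, preparations 1 and 3 used the TRI kit and preparation 2 the Norgen kit, and preparations 2 and 3 carry the same numeric tag. The labels do not say whether preparations 2 and 3 are separate litters or 1 pool of cells split between kits. The 3 libraries of a fraction may therefore not be 3 independent samples. Both fractions came from transgenic kidneys, and cells of non-transgenic littermates served only to set the sorting gate. The protocol describes 1 litter of 11 embryos, 7 of them transgenic, and processes transgenic kidneys together, so a library is no single animal. The labels name no strain or sex of the embryos. Six2-low is the remainder of the kidney and holds many cell types, epithelial and other.

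Amino acid and glucose carriers work in relays. In the proximal tubule, sodium-coupled carriers on the apical membrane take up filtered glucose and amino acids, and exchangers and facilitative carriers on the basolateral side pass them to the blood. Growing cells rely on other members, such as the leucine exchanger Slc7a5 with its heavy chain Slc3a2, glutamine carriers of the Slc38 family and the glucose carrier Slc2a1. The nephron progenitors of the cap mesenchyme give rise to the tubule epithelium that later carries the reabsorption machinery.

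The libraries held 23535399 to 29791421 counts. Cap mesenchyme markers summed to 3605, 5498 and 4954 CPM (counts scaled to a common library size) in Six2-high and to 465, 332 and 318 CPM in Six2-low, and 11 of 12 were called higher. Proximal tubule markers summed to 142, 140 and 205 CPM in Six2-high, against 1361, 1809 and 1825 CPM in Six2-low, and all 12 were called lower, with none at 0 in Six2-high. Loop and distal tubule markers summed to 4.47 to 13.3 CPM in Six2-high, against 780 to 858 CPM in Six2-low, ureteric and collecting duct markers to 24.7 to 32.8 CPM, against 886 to 1072 CPM, endothelial markers to 6.04 to 10.3 CPM, against 779 to 1294 CPM, and stromal markers to 219 to 275 CPM, against 2352 to 2818 CPM. Podocyte markers differed less in sum, at 633 to 913 CPM in Six2-high, against 1048 to 1211 CPM in Six2-low. Immune markers summed to 8.10 to 22.8 CPM in Six2-high, against 171 to 279 CPM in Six2-low. In each of the stromal, podocyte and immune lists, 7 of 8 markers were called lower. The exceptions weighed on the Six2-high sums. Stromal Foxd1 was called higher, at 49.3, 120 and 151 CPM in Six2-high, against 18.7, 51.5 and 57.3 CPM in Six2-low. So was podocyte Wt1, at 569, 857 and 750 CPM, against 253, 289 and 271 CPM. Immune Cd68 was not called, at 6.36, 21.8 and 7.07 CPM in Six2-high, against 16.2, 15.01 and 10.9 CPM in Six2-low. The Six2-high library of preparation 3 devoted 9.59% of its counts to the ribosomal transcript Rn45s, against 0.499 to 0.676% in the other 5 libraries. In the Six2-low library of preparation 1, erythroid markers summed to 1776 CPM, against 138 and 141 CPM in the other 2 Six2-low libraries. Values below are given in the order of preparations 1, 2 and 3.

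More of these carriers were lower in the progenitor fraction than higher. Of the 74 tested, 40 were called lower and 11 higher in Six2-high at an adjusted p under 0.05 (edgeR quasi-likelihood test, two-sided, Benjamini-Hochberg over all 15347 genes tested), and 23 were not called. Over all genes tested, 28.7% were called lower, 21.4% higher and 50.1% either way. The members' median log2 fold change (Six2-high over Six2-low) was -0.83, against 0.05 over all genes. With preparation as a replicate block, 43 members were called lower and 13 higher, beside 33.0% and 31.7% of all genes (64.6% either way). The block added Slc2a1, Slc6a6 and Slc43a1 to the lower and Slc6a9 and Slc36a4 to the higher. The 3 Six2-high libraries lay wholly below the 3 Six2-low libraries for 42 members and wholly above for 13, beside 32.0% and 28.0% of all genes. In such bulk samples, fewer cells of a type and less RNA per cell cannot be told apart. The p-values measure the spread between these libraries, part of which may be technical.

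Detection split the members. With at least 10 counts in every library of a fraction as the limit, 60 tested members were detected in both fractions, and of these 11 were called higher, 27 lower and 22 neither way. A further 13 were detected in Six2-low alone and all 13 were called lower, which the filter on low counts partly fixes. They included Slc2a9, Slc38a5, Slc5a9, Slc6a19, Slc7a12 and Slc7a13. Slc36a2, a proton-coupled carrier of glycine and proline, passed the limit in Six2-high alone and was not called, with 36 counts in either fraction.

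By family, the sodium-coupled sugar and monocarboxylate carriers (Slc5) and the sodium- and chloride-coupled carriers (Slc6) were mostly lower. In Slc5, 8 of 9 tested members were called lower and none higher (median log2 fold change -3.41), and in Slc6, 12 of 15 were lower and 1 higher (-2.44). Both Slc3 heavy chains were lower (-1.83). The glutamate and neutral amino acid carriers of Slc1 had 2 lower and 2 higher of 6 (0.59). Slc2, the glucose carriers, had 5 lower and 1 higher of 12 (-0.43), with the pseudogene Slc2a4rg-ps counted among those not called. Slc7, the amino acid exchangers and cationic carriers, had 7 lower and 5 higher of 15 (-0.42), with Slc7a6os counted among the higher. Both of these rows were left out of the family shares of summed RPKM given below. Slc38, the glutamine carriers, had 3 lower and 2 higher of 9 (-0.22). In Slc43, 1 of 3 was lower (-0.43), and none of the 3 proton-coupled Slc36 members was called (0.30).

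**Figure D1:**
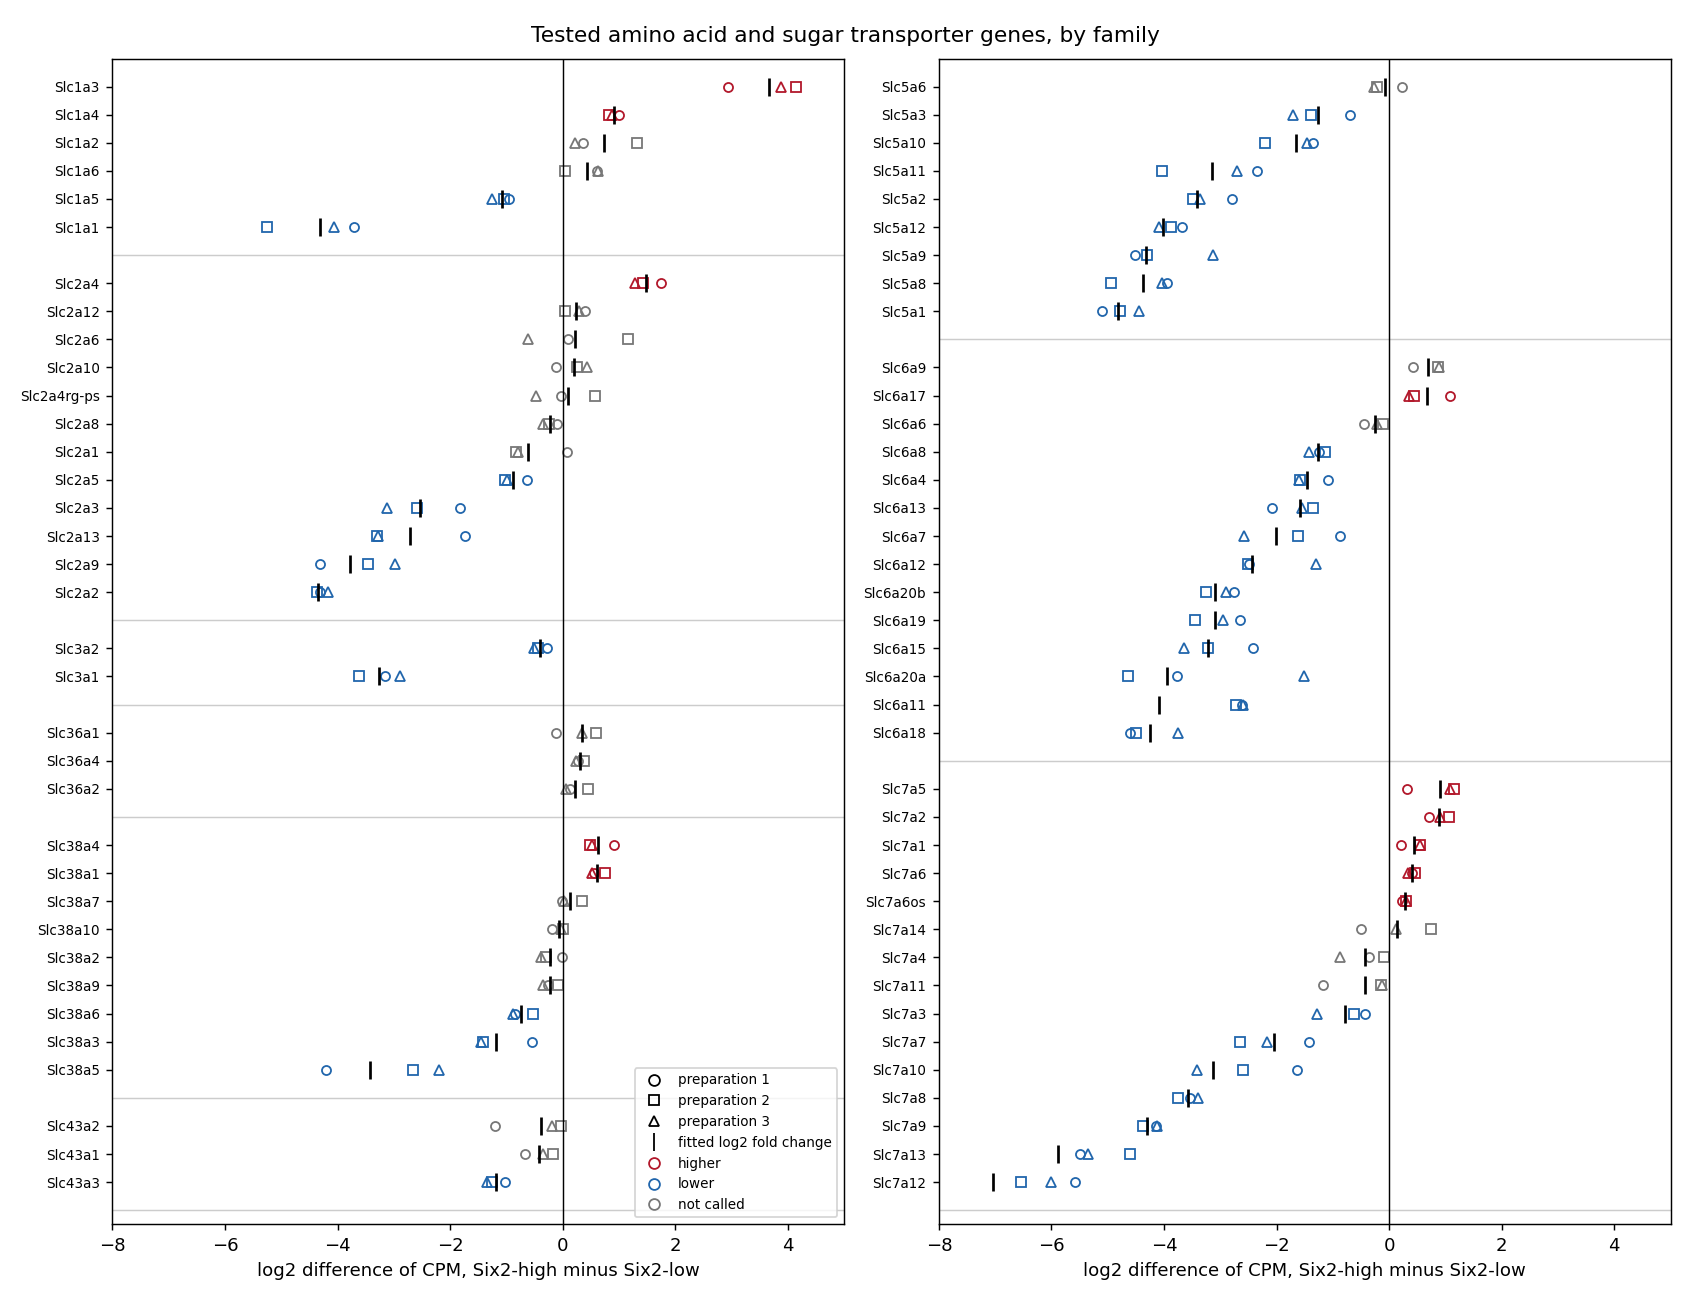
Log2 difference of CPM (Six2-high minus Six2-low) in each of the 3 preparations for 73 of the 74 tested members, by family; black bars are the fitted log2 fold changes, and colours mark calls at an adjusted p under 0.05. Fitted values run from 3.67 for Slc1a3 to -7.04 for Slc7a12, and most coloured points lie left of 0.

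Apical amino acid carriers of the proximal tubule were low in Six2-high as a group. Their summed level was 8.24, 9.36 and 15.1 CPM in Six2-high, against 120, 186 and 178 CPM in Six2-low, with no overlap. Of the 8 members, 7 were called lower, none higher, and Slc36a2 was not called (median log2 fold change -3.60). The fall went with the proximal tubule markers, whose summed Six2-high level was 0.0974 of that in Six2-low, and the markers' part in it was not tested.

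Slc6a18, a glycine and neutral amino acid carrier of the brush border (chr13:73661752-73678023, GRCm38), was at 2.02, 4.13 and 6.24 CPM in Six2-high, against 50.9, 94.8 and 85.0 CPM in Six2-low. The fractions were far apart in every preparation, with a log2 fold change of -4.24 (SE 0.40, edgeR adjusted p = 4.29e-05). Slc6a19, which lies 1.72 kb away and encodes the main brush-border carrier of neutral amino acids, averaged 0.564 ± 0.215 CPM in Six2-high, compared with 4.91 ± 0.403 CPM in Six2-low (SD, n = 3 each; log2 fold change -3.10). Slc1a1, the epithelial glutamate carrier (chr19:28835049-28913960), had 1.74, 0.717 and 1.82 CPM in Six2-high, against 23.7, 30.1 and 31.5 CPM in Six2-low. The groups did not overlap, and the log2 fold change was -4.32 (SE 0.32, edgeR adjusted p = 9.95e-06).

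Cystine and dibasic amino acids are taken up by the light chain Slc7a9 bound to the heavy chain Slc3a1, the pair affected in cystinuria. Slc7a9 (chr7:35448796-35466036) was at 1.01, 0.928 and 1.08 CPM in Six2-high, against 19.1, 20.7 and 20.1 CPM in Six2-low. The libraries of a fraction were close to each other and the fractions far apart (log2 fold change -4.31, SE 0.18, edgeR adjusted p = 7.84e-07). Slc3a1 (chr17:85028376-85064236) had 1.56, 2.28 and 3.93 CPM in Six2-high, compared with 14.6, 28.8 and 29.8 CPM in Six2-low. It too was lower in every preparation (log2 fold change -3.26, SE 0.39, edgeR adjusted p = 0.000178). The iminoacid carrier genes Slc6a20a and Slc6a20b, 2.21 kb apart, were both lower, Slc6a20b by a log2 fold change of -3.10. Slc6a20a had 6 counts in all of Six2-high and 112 in Six2-low, and its log2 fold change of -3.94 became -5.87 without the Six2-high library of preparation 3.

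The members' promoters were searched on both strands for motifs of HNF4, a factor known to act on proximal tubule genes. RefSeq windows (GRCm38.p6, 250 bases before to 50 after a gene's start) were found for 64 of the 88 members. The full HNF4 repeat was in none of the 64 and in 0.0185% of all 27025 genes with a window. The HNF4 core CAAAGTCCA was in 1 member, Slc3a1, and in 0.555% of all genes. The hypoxia element ACGTG, a frequent motif, was in 19 members (29.7%), Slc2a1 and Slc3a2 among them. It was in 21.8% of all genes and in 23.7% of the 16375 genes of the count table with a window. The 64 members had 87 windows in all, against 32851 for the 27025 genes, and each further window is a further place for a match. The stretch from 110 bases before to 10 bases after the start of Slc3a1 is shown because it holds the 1 match to the HNF4 core, in capitals, read 5′ to 3′ on the gene's strand (chr17:85028237-85028356, plus strand).
Slc3a1: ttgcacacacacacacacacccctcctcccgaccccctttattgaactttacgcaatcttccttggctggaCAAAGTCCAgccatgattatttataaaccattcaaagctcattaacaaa
A match is a string of letters and no measurement of binding.

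The proximal tubule's carriers of sugar, lactate and urate showed the same direction. All 9 were called lower, and their log2 fold changes had a median of -4.01. Their sum was 12.03, 11.1 and 13.8 CPM in Six2-high, against 121, 145 and 153 CPM in Six2-low. Here too the proximal tubule markers moved alongside, and their part was not tested. Slc5a1, the sodium-glucose carrier SGLT1 (chr5:33104219-33162870), had 0.730, 1.27 and 1.72 CPM in Six2-high, against 27.5, 36.6 and 39.1 CPM in Six2-low. No library came near the other fraction, and the log2 fold change was -4.82 (SE 0.30, edgeR adjusted p = 4.5e-06). Slc5a2, the high-capacity glucose carrier SGLT2 of the early tubule, averaged 0.670 ± 0.099 CPM in Six2-high, compared with 7.12 ± 2.44 CPM in Six2-low (log2 fold change -3.41).

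Slc2a2, the basolateral glucose carrier GLUT2 (chr3:28697903-28731359), stood at 1.49, 1.43 and 1.87 CPM in Six2-high, against 31.3, 30.9 and 34.8 CPM in Six2-low. The gap was many times the spread within either fraction (log2 fold change -4.34, SE 0.17, edgeR adjusted p = 6.73e-07). The lactate carriers Slc5a8 and Slc5a12 were lower by log2 fold changes of -4.37 and -4.01. Slc5a8 had 1.25, 0.886 and 1.72 CPM in Six2-high, against 20.4, 29.3 and 29.4 CPM in Six2-low. Slc2a9, a urate carrier, had 0.348, 0.380 and 0.687 CPM in Six2-high, against 8.36, 4.95 and 5.97 CPM in Six2-low (log2 fold change -3.79, SE 0.36, edgeR adjusted p = 4.42e-05). Slc5a9 and Slc5a10, further sugar carriers of the family, were lower by -4.31 and -1.66, and the fructose carrier Slc2a5 by -0.88. The calls of Slc5a10 and Slc2a5 ended without preparation 3 (adjusted p = 0.0612 and 0.0713).

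**Figure D2:**
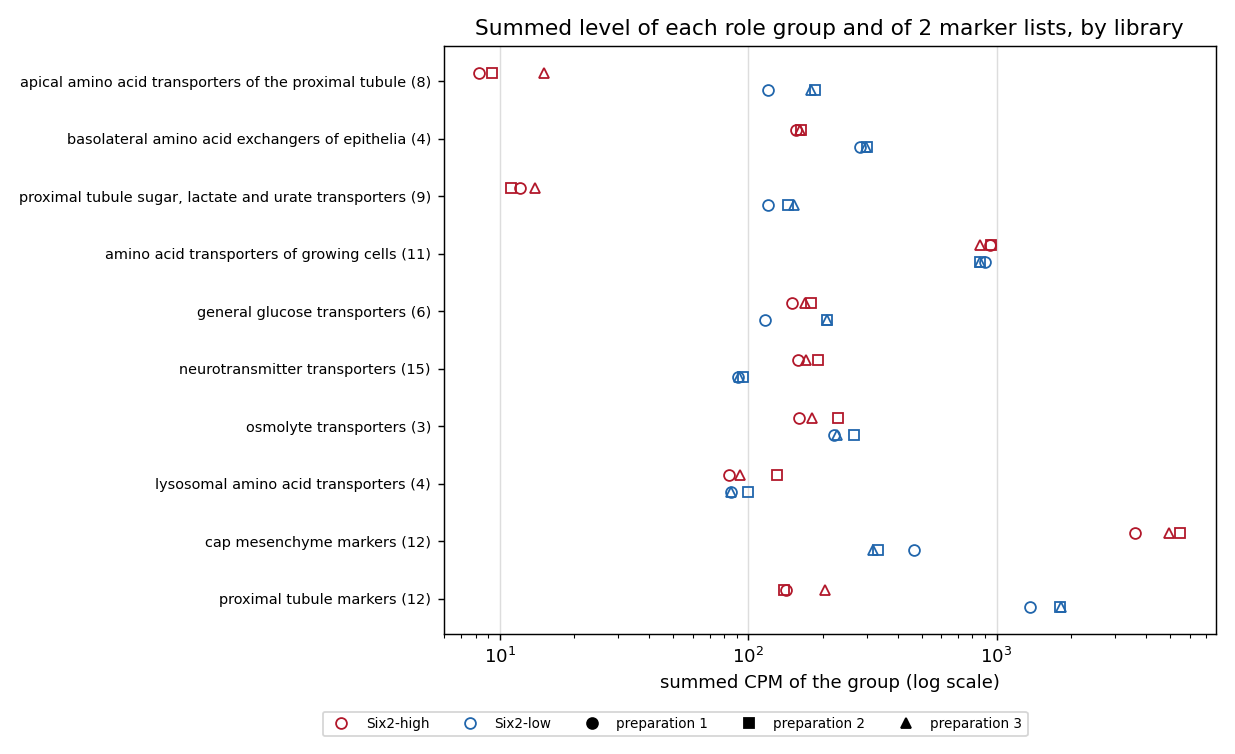
Summed CPM (log scale) of each role group and of 2 marker lists in the 3 Six2-high libraries (red) and the 3 Six2-low libraries (blue); symbols mark preparations and numbers in brackets the genes per group. The apical amino acid carriers lie at 8.24 to 15.1 CPM in Six2-high, compared with 120 to 186 CPM in Six2-low, while carriers of growing cells lie at 861 to 947 CPM in Six2-high and at 855 to 898 CPM in Six2-low.

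As a group, the basolateral exchangers were lower by a smaller factor. Of 4 genes, 3 were called lower (median log2 fold change -1.23), with summed levels of 156, 164 and 161 CPM in Six2-high, against 282, 301 and 299 CPM in Six2-low. The heavy chain Slc3a2, described below, made up most of the sum in every library and was lower by less than Slc7a7 and Slc7a8. Slc7a8, the broad neutral amino acid exchanger LAT2 (chr14:54722209-54781946), had 6.22, 5.69 and 6.09 CPM in Six2-high, compared with 73.5, 77.4 and 64.7 CPM in Six2-low. Its libraries agreed within each fraction, and its log2 fold change was -3.58 (SE 0.13, edgeR adjusted p = 5.47e-07). Slc7a7, the cationic amino acid exchanger affected in lysinuric protein intolerance, averaged 6.38 ± 1.99 CPM in Six2-high, against 26.5 ± 4.07 CPM in Six2-low (log2 fold change -2.05). Slc43a2, a facilitative carrier of large neutral amino acids, overlapped between fractions and was not called (-0.38, adjusted p = 0.288).

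Slc3a2, the heavy chain shared by Slc7a5, Slc7a6, Slc7a7 and Slc7a8 (chr19:8706882-8723369), had 127, 119 and 122 CPM in Six2-high, compared with 154, 161 and 174 CPM in Six2-low. The fractions did not overlap, but the difference was small (log2 fold change -0.41, SE 0.10, edgeR adjusted p = 0.0093), and the call ended without the Six2-low library of preparation 3 (adjusted p = 0.0507) or without all of preparation 3 (adjusted p = 0.125). Per exon length it had the highest mean level of all members in both fractions, at 34.8 ± 1.2 RPKM (CPM per kb of exon) in Six2-high and 46.1 ± 2.9 RPKM in Six2-low, although Slc38a10 was above it in the Six2-high libraries of preparations 2 and 3.

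Carriers of growing cells were divided. Of 11 genes, 5 were called higher (Slc1a4, Slc7a1, Slc7a5, Slc7a6 and Slc38a1), 3 lower (Slc1a5, Slc3a2 and Slc38a5) and 3 neither way, with a median log2 fold change of -0.22. The group summed to 937.5, 947 and 861 CPM in Six2-high, against 898, 860 and 855 CPM in Six2-low, with overlap. Slc7a5, the leucine exchanger LAT1 (chr8:121881150-121907694), was at 65.0, 118 and 109 CPM in Six2-high, compared with 52.1, 53.0 and 51.4 CPM in Six2-low. All Six2-high libraries were above all Six2-low ones, preparation 1 by the least. Its log2 fold change was 0.90 (SE 0.20, edgeR adjusted p = 0.00643), and the call ended without preparation 2 or 3 (adjusted p = 0.0587 and 0.0899).

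The balance of the LAT1 and LAT2 light chains differed between fractions. Per exon length, Slc7a5 was 14.1, 27.9 and 24.2 times as high as Slc7a8 in Six2-high, against 0.957, 0.924 and 1.07 times in Six2-low. Within the Slc7 family, Slc7a5 made up 45.1 ± 8.86% of the summed RPKM in Six2-high and 18.9 ± 0.384% in Six2-low, and Slc7a8 2.12% in Six2-high and 19.3% in Six2-low. Slc7a6, the exchanger y+LAT2, averaged 69.2 ± 6.99 CPM in Six2-high, against 52.5 ± 4.95 CPM in Six2-low (log2 fold change 0.40, edgeR adjusted p = 0.0248). That call ended without the Six2-high library of preparation 1 (adjusted p = 0.0563) and without the Six2-low library of preparation 2 or 3 (0.0965 and 0.0914) or all of preparation 2 or 3 (0.0979 and 0.127). Slc7a6os, which lies 2.01 kb from Slc7a6, had a log2 fold change of 0.28 at an adjusted p of 0.0473, and its call ended when any 1 library was left out (0.0592 to 0.166) and with DESeq2 (0.0548).

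The neutral amino acid exchangers of the Slc1 family moved in opposite directions. Slc1a5, the glutamine exchanger ASCT2, had 35.2, 25.1 and 24.0 CPM in Six2-high, compared with 68.6, 52.1 and 57.5 CPM in Six2-low. It was lower in each preparation (log2 fold change -1.08, SE 0.18, edgeR adjusted p = 0.0011). Slc1a4, the alanine and serine carrier ASCT1, had 31.5, 24.5 and 22.0 CPM in Six2-high, against 15.6, 13.7 and 11.9 CPM in Six2-low. It was higher in each (log2 fold change 0.92, SE 0.18, edgeR adjusted p = 0.00287). Their ratio per exon length, Slc1a4 over Slc1a5, was 0.952, 1.04 and 0.974 in Six2-high and 0.242, 0.280 and 0.221 in Six2-low, so the libraries of a fraction lay close together.

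Cationic amino acid carriers of the Slc7 family were split as well. Slc7a1, the widespread arginine carrier CAT1, had 81.0, 101 and 86.9 CPM in Six2-high, compared with 69.7, 68.8 and 59.4 CPM in Six2-low (log2 fold change 0.44, SE 0.12, edgeR adjusted p = 0.0167). The call ended without the Six2-low library of preparation 3 (adjusted p = 0.0761) and without preparation 2 or 3 (0.0671 and 0.143). Slc7a2, the related CAT2, had 19.7, 20.8 and 17.1 CPM in Six2-high, against 12.03, 9.90 and 9.16 CPM in Six2-low, with no overlap (log2 fold change 0.89, SE 0.16, edgeR adjusted p = 0.00211). Slc7a3, the related CAT3, was scarce and lower, at 1.78 ± 0.391 CPM in Six2-high, compared with 3.07 ± 0.330 CPM in Six2-low (log2 fold change -0.78, adjusted p = 0.0382). Its call ended when the library of preparation 2 or 3 was left out of either fraction or of both (adjusted p = 0.0746 to 0.317), and with no filter on low counts (0.053).

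Among the Slc38 carriers, 2 were higher in Six2-high. Slc38a1, the glutamine carrier SNAT1 (chr15:96571418-96642913), had 190, 226 and 190 CPM in Six2-high, against 129, 135 and 133 CPM in Six2-low. The fractions did not overlap, and the log2 fold change was 0.61 (SE 0.11, edgeR adjusted p = 0.00183). Slc38a4 (chr15:96994820-97055956), a related small neutral amino acid carrier known to be imprinted in mice, had 111, 107 and 119 CPM in Six2-high, compared with 58.7, 76.6 and 82.7 CPM in Six2-low (log2 fold change 0.63, SE 0.14, edgeR adjusted p = 0.00589). Slc38a2, the nutrient-responsive SNAT2, lies between them, 44.5 kb from Slc38a1. It had 311, 246 and 224 CPM in Six2-high, against 312, 302 and 293 CPM in Six2-low, and was not called (log2 fold change -0.22, adjusted p = 0.224). Without the Six2-high library of preparation 1 or without all of preparation 1 it was called lower (-0.38 in both, adjusted p = 0.0232 and 0.0378).

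The glutamine carriers of the other functional class within Slc38, which can run in both directions, were lower. Slc38a3, SNAT3, had 12.6, 11.98 and 11.4 CPM in Six2-high, compared with 18.4, 31.9 and 31.3 CPM in Six2-low (log2 fold change -1.18, SE 0.22, edgeR adjusted p = 0.00206). Slc38a5, SNAT5, had 0.209, 0.295 and 0.393 CPM in Six2-high, against 5.18, 2.26 and 2.06 CPM in Six2-low (log2 fold change -3.42, SE 0.50, edgeR adjusted p = 0.000533). The Slc38a5 value in Six2-low was highest in preparation 1, the library with 1776 CPM of erythroid markers, whose part was not tested. Slc38a6 was lower at -0.75, a call that ended without preparation 3 (adjusted p = 0.128), and it shares 22.8% of its 50-base stretches with other annotated transcripts. Slc38a10, second in mean level per exon length in Six2-high, averaged 217 ± 23.3 CPM in Six2-high, compared with 228 ± 11.7 CPM in Six2-low and was not called.

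Several carriers of growing cells are known targets of the amino acid response, in which the factor ATF4 acts on TGATGCAA and like elements. Atf4 was at 378 ± 4.61 CPM in Six2-high, against 267 ± 6.64 CPM in Six2-low (log2 fold change 0.50, SE 0.10, edgeR adjusted p = 0.0027). Of 15 amino acid response genes, Atf4 was the 1 called higher, 5 were lower (Trib3, Ddit4, Sesn2, Cth and Stc2) and the median log2 fold change was -0.04. The synthesis gene Asns averaged 16.3 ± 3.57 CPM in Six2-high, compared with 15.2 CPM in Six2-low and was not called. The count called lower was 2 without preparation 2 or without preparation 3, and the count called higher was 3 with the block. TGATGCAA, searched on both strands, was in 3 of 64 member promoters (4.69%) and in 1.03% of all genes with a window. These 3 are shown, with the motif on either strand in capitals, over the same span about the start as before (Slc1a4 chr11:20332704-20332823, Slc7a7 chr14:54417935-54418054 and Slc7a11 chr3:50443604-50443723, all minus strand, RefSeq GRCm38.p6).
Slc1a4: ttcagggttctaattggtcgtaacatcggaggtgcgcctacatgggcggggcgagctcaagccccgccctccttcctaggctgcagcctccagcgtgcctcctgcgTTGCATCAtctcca
Slc7a7: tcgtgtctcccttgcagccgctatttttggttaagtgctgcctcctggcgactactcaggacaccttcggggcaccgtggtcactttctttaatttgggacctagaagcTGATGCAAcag
Slc7a11: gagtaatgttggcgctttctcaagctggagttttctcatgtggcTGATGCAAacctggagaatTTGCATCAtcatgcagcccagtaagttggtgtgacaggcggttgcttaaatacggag
Slc7a11 held the motif on both strands, and Slc1a4 and Slc7a7 held it once. The 3 genes did not move together. Slc1a4 was higher and Slc7a7 lower, and Slc7a11, the cystine-glutamate exchanger, had 3.34, 6.54 and 6.83 CPM in Six2-high, against 7.66, 7.21 and 7.42 CPM in Six2-low. The Slc7a11 libraries did not overlap, but it was not called (log2 fold change -0.42, SE 0.28, edgeR adjusted p = 0.234).

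**Figure D3:**
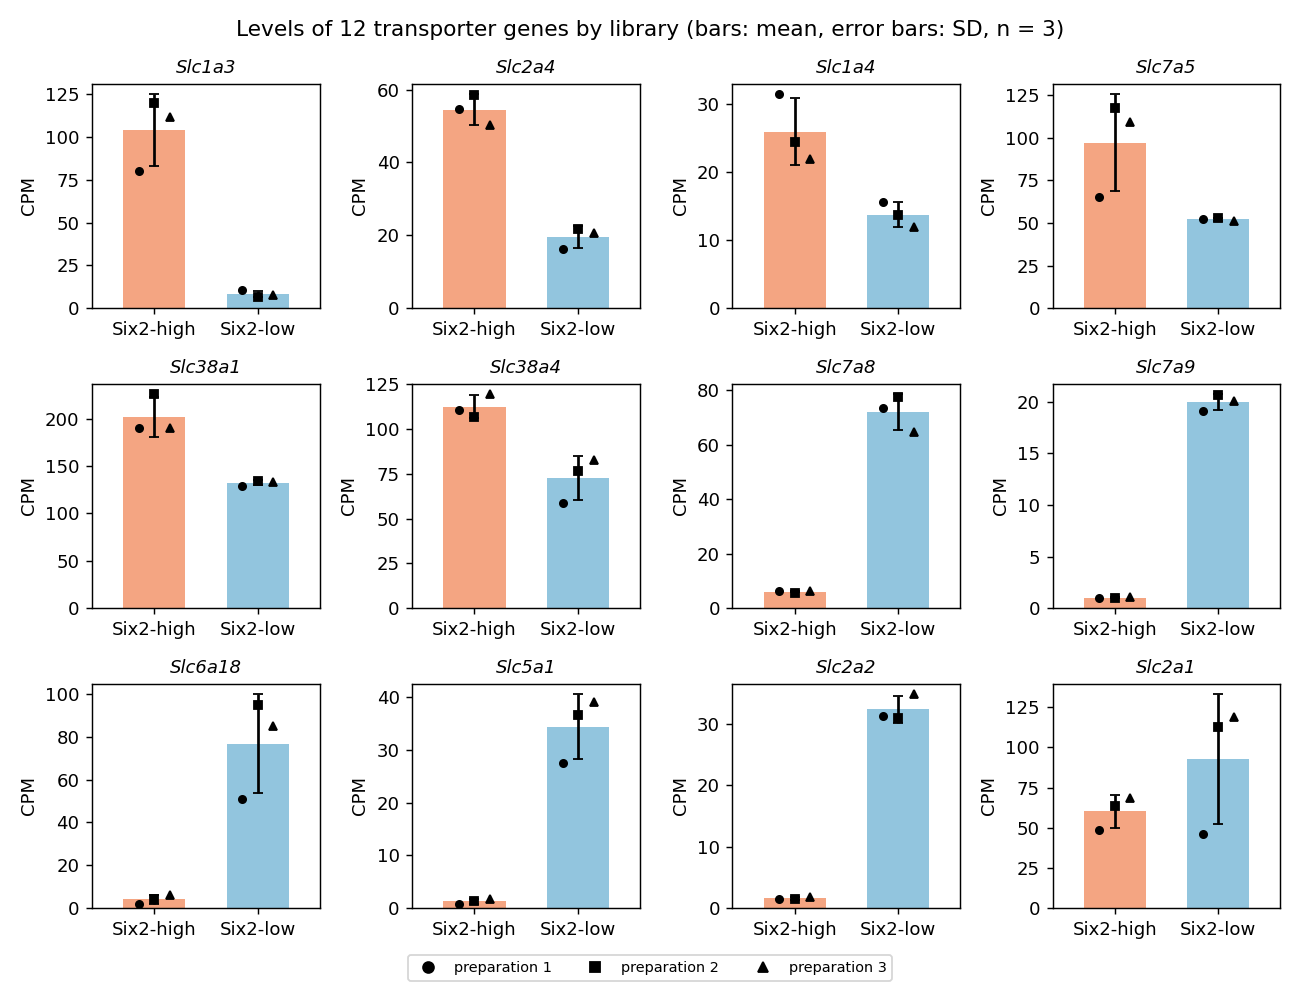
CPM of 12 members in each library, with bars at the mean, error bars of 1 SD (n = 3) and symbols for preparations. Slc1a3 averages 104 CPM in Six2-high, compared with 8.18 CPM in Six2-low, Slc7a8 averages 6.002 CPM in Six2-high, against 71.9 CPM in Six2-low, and for Slc2a1 the Six2-low library of preparation 1 (46.1 CPM) lies far below the other 2 (113 and 119 CPM).

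General glucose carriers also differed one by one. Slc2a4, the insulin-responsive carrier GLUT4 of muscle and fat (chr11:69942539-69948188), had 54.6, 58.7 and 50.2 CPM in Six2-high, against 16.1, 21.8 and 20.7 CPM in Six2-low. It was higher in every preparation, with a log2 fold change of 1.48 (SE 0.14, edgeR adjusted p = 5.18e-05). Slc2a1, the widespread GLUT1 (chr4:119108711-119137983), had 48.8, 63.4 and 68.4 CPM in Six2-high, compared with 46.1, 113 and 119 CPM in Six2-low. The fractions overlapped, and it was not called (log2 fold change -0.62, SE 0.32, edgeR adjusted p = 0.138). With the replicate block Slc2a1 was called lower (-0.52, adjusted p = 0.0443), and so it was without the Six2-low library of preparation 1 (-0.99, adjusted p = 0.00183), the one with the high erythroid markers, whose part was not tested, and without all of preparation 1 (-0.85, adjusted p = 0.00108).

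Per exon length, Slc2a4 was 1.13, 0.932 and 0.741 times as high as Slc2a1 in Six2-high, so the levels of the pair were close. In Six2-low the ratio was 0.3525, 0.1945 and 0.175. Slc2a4 took 31.4 ± 3.01% of the Slc2 family's summed RPKM in Six2-high and 9.33 ± 1.11% in Six2-low. Slc2a3, the high-affinity GLUT3, averaged 2.18 ± 0.504 CPM in Six2-high, against 12.8 ± 2.79 CPM in Six2-low (log2 fold change -2.54, SE 0.26, edgeR adjusted p = 6.58e-05). Slc2a8, Slc2a10 and Slc2a12 were not called, at log2 fold changes of -0.23, 0.21 and 0.23. Slc2a13, a proton-coupled inositol carrier, was lower, at 2.60 ± 1.24 CPM in Six2-high, compared with 17.3 ± 3.31 CPM in Six2-low (log2 fold change -2.72).

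**Figure D4:**
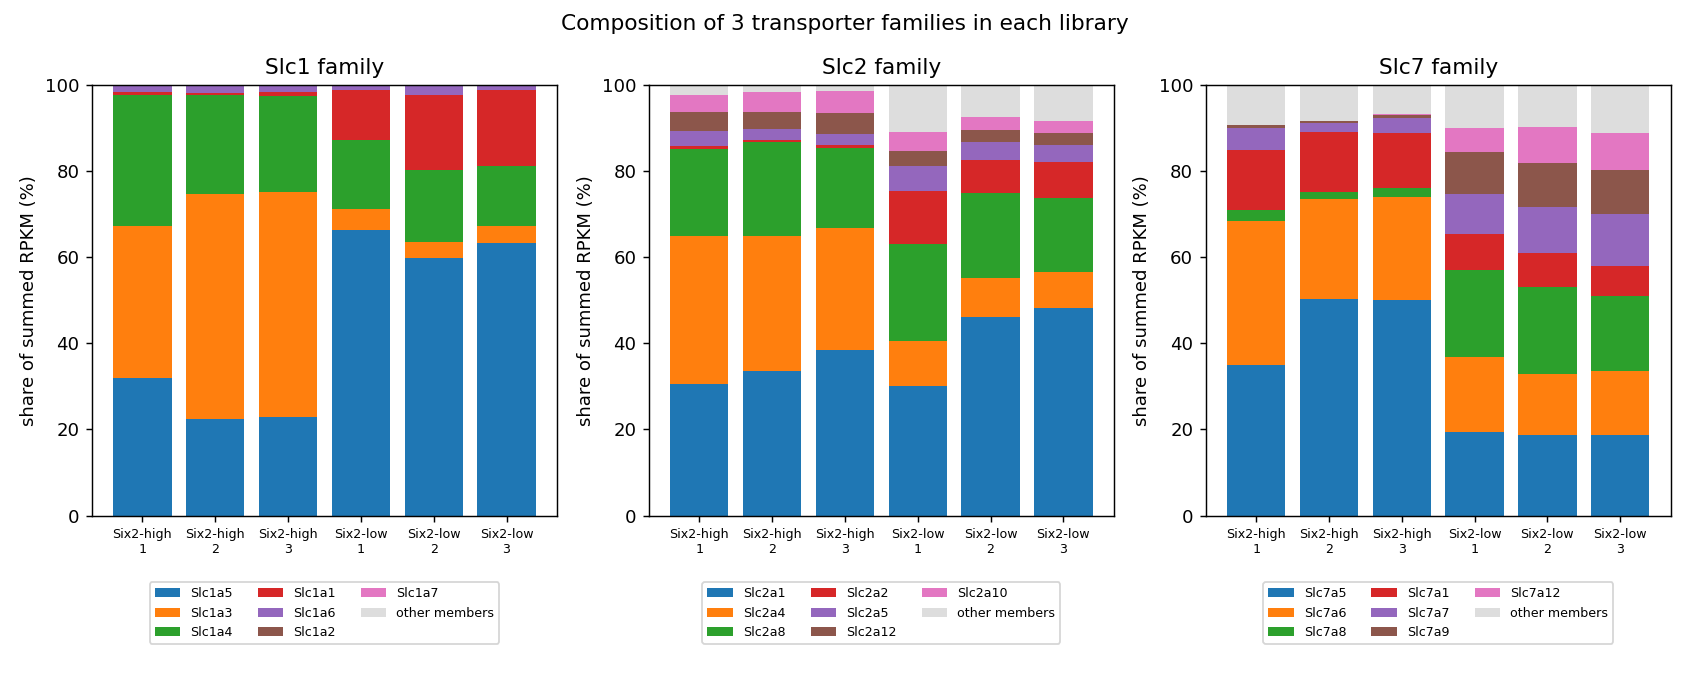
Share (%) of each family's summed RPKM taken by its members in the 6 libraries, for Slc1, Slc2 and Slc7; grey is the rest of the family. Slc1a3 takes 46.6% of Slc1 in Six2-high and 4.23% in Six2-low, and Slc7a5 45.1% of Slc7 in Six2-high and 18.9% in Six2-low.

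Carriers best known from the nervous system included the member with the largest rise. Slc1a3, the glutamate carrier GLAST of astrocytes (chr15:8634124-8710764), had 80.1, 120 and 112 CPM in Six2-high, against 10.3, 6.67 and 7.55 CPM in Six2-low. The lowest Six2-high library was several times the highest Six2-low library (log2 fold change 3.67, SE 0.22, edgeR adjusted p = 3.81e-06). It made up 46.6 ± 9.67% of the Slc1 family's summed RPKM in Six2-high, against 4.23 ± 0.59% in Six2-low, where Slc1a5 took 63.1 ± 3.28%. The other glial glutamate carrier, Slc1a2, was near the limit of detection, at 0.820 ± 0.316 CPM in Six2-high, compared with 0.485 ± 0.0836 CPM in Six2-low, and was not called.

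In the whole group of 15 neurotransmitter carriers, 11 were tested, 2 were higher (Slc1a3 and Slc6a17) and 6 lower, and the median log2 fold change was -1.46. Their sum ran the other way, at 159, 191 and 172 CPM in Six2-high, against 90.8, 95.2 and 92.1 CPM in Six2-low. Slc1a3 alone gave 80.1, 120 and 112 CPM of the Six2-high sums. Slc6a17, a vesicular neutral amino acid carrier of neurons, had 34.0, 22.1 and 21.2 CPM in Six2-high, compared with 16.0, 16.3 and 16.6 CPM in Six2-low (log2 fold change 0.67, SE 0.19, edgeR adjusted p = 0.0206). Its call ended when any 1 Six2-low library or any 1 preparation was left out (adjusted p = 0.0531 to 0.0666). Slc6a9, the glycine carrier GLYT1, had 34.4, 28.8 and 22.2 CPM in Six2-high, against 25.6, 15.8 and 11.9 CPM in Six2-low. It was higher within each preparation but overlapped between them, and was called only with the replicate block (log2 fold change 0.72, adjusted p = 0.00252), without the Six2-low library of preparation 1 (1.00, adjusted p = 0.0101), without preparation 1 (adjusted p = 0.0151) and by DESeq2 (adjusted p = 0.0377), against 0.68 and 0.0736 without the block.

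The lower members included carriers of GABA, serotonin and amino acids. Slc6a13, the GABA and taurine carrier GAT2, had 5.94, 14.97 and 12.5 CPM in Six2-high, compared with 25.3, 38.2 and 36.6 CPM in Six2-low (log2 fold change -1.59, SE 0.32, edgeR adjusted p = 0.00351). Slc6a15, a carrier of branched-chain amino acids and proline, had 1.15, 1.05 and 0.933 CPM in Six2-high, against 6.44, 10.5 and 12.5 CPM in Six2-low (log2 fold change -3.22, SE 0.30, edgeR adjusted p = 4.27e-05). Slc6a4, the serotonin carrier, was lower by -1.46. Slc6a11, a GABA carrier, was rare. It had 2 counts in all of Six2-high and 45 in Six2-low, a ratio of Six2-low over Six2-high of 19.6 (95% exact interval 5.12 to 167, counting error only). Both Six2-high counts were in the library of preparation 1. The fitted log2 fold change was -4.10, and -6.80 without that library, a value that is no bound because the remaining Six2-high libraries were at 0. The proline carrier Slc6a7 lost its call without preparation 2 or 3 (adjusted p = 0.0722 and 0.111).

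Osmolyte carriers were lower or not called. Slc5a3, the inositol carrier, averaged 11.02 ± 2.11 CPM in Six2-high, compared with 26.6 ± 5.87 CPM in Six2-low (log2 fold change -1.27), and the betaine carrier Slc6a12 was lower by -2.44. The taurine carrier Slc6a6, the Slc6 member with the highest mean CPM, had 147, 218 and 172 CPM in Six2-high, against 201, 235 and 200 CPM in Six2-low. The fractions overlapped and it was not called (log2 fold change -0.24, adjusted p = 0.231), although it was with the replicate block (-0.26, adjusted p = 0.0349) and without the Six2-high library of preparation 2 (-0.40, adjusted p = 0.0357). Slc6a8, the creatine carrier, was lower, at 54.0, 81.1 and 56.7 CPM in Six2-high, compared with 127, 179 and 152 CPM in Six2-low (log2 fold change -1.26, SE 0.19, edgeR adjusted p = 0.000656).

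None of the 4 lysosomal amino acid carriers was called. Slc36a1, the proton-coupled carrier PAT1, had 20.8, 51.8 and 32.7 CPM in Six2-high, against 22.7, 34.4 and 25.6 CPM in Six2-low, with overlap (log2 fold change 0.35, adjusted p = 0.376), and -0.04 without the Six2-high library of preparation 2. Slc36a4 averaged 21.4 ± 2.30 CPM in Six2-high, compared with 17.3 ± 0.976 CPM in Six2-low and was called higher only with the block (log2 fold change 0.30, adjusted p = 0.0266). The glutamine exporter Slc38a7 and the arginine sensor Slc38a9 were at 0.13 and -0.22. The group's sum was 83.8, 130 and 93.1 CPM in Six2-high, against 85.5, 100 and 85.7 CPM in Six2-low.

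The remaining members with large changes were Slc7a12 and Slc7a13, which were rare in Six2-high. Slc7a12 (chr3:14480697-14505830), a relative of the small neutral amino acid exchanger Slc7a10, had 5 counts over all Six2-high libraries and 814 over all Six2-low libraries. That is 0.0695, 0.0422 and 0.0982 CPM in Six2-high, compared with 6.88, 10.96 and 11.2 CPM in Six2-low, with a log2 fold change of -7.04 (SE 0.40, edgeR adjusted p = 2.99e-06). Slc7a13, an aspartate and glutamate carrier that pairs with Slc3a1 in the late proximal tubule of mice, had 7 counts in Six2-high and 503 in Six2-low. Its log2 fold change was -5.88 (SE 0.43, edgeR adjusted p = 1.02e-05), or -6.48 without the Six2-high library of preparation 2. Slc7a10 itself had 6 counts in Six2-high and 62 in Six2-low. Its log2 fold change was -3.12, or -3.92 without the Six2-high library of preparation 1.

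Slc43a3, a purine nucleobase carrier, was the 1 Slc43 member called. It had 43.9, 31.5 and 27.5 CPM in Six2-high, against 89.3, 75.5 and 69.9 CPM in Six2-low, without overlap (log2 fold change -1.19, SE 0.19, edgeR adjusted p = 0.000833). Slc43a1, a large neutral amino acid carrier that lies 73.0 kb from it, was called lower only with the block (-0.41, adjusted p = 0.0284). Slc5a6, the biotin and pantothenate carrier, was the 1 tested Slc5 member not called, at 26.3, 20.3 and 17.6 CPM in Six2-high, compared with 22.4, 23.6 and 21.3 CPM in Six2-low. It made up 65.8% of the Slc5 family's summed RPKM in Six2-high and 18.0% in Six2-low, where Slc5a1 took 26.2%. The inositol carrier Slc5a11 was lower by -3.15. The tested members not yet described were not called. They were Slc1a6, a glutamate carrier of cerebellar neurons (log2 fold change 0.43), Slc2a6 (0.23), the pseudogene Slc2a4rg-ps (0.10), Slc7a4 (-0.42) and Slc7a14 (0.14), and Slc36a2 was at 0.22.

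Genes for the carriers' partners and regulators were also mostly lower. Of 12, 11 were called lower and 1 higher, with a median log2 fold change of -3.71. Tmem27, the collectrin that brings Slc6a19 and its relatives to the brush border, averaged 4.42 ± 1.41 CPM in Six2-high, against 70.0 ± 12.1 CPM in Six2-low (log2 fold change -4.00). The scaffold genes Pdzk1 and Pdzk1ip1 were at -3.43 and -4.09. Hnf4a averaged 6.03 CPM in Six2-high, compared with 216 CPM in Six2-low (-5.17). Hnf4a is also one of the proximal tubule markers that summed to a low level in Six2-high, and the markers' part in this list was not tested. Sgk1 and Nedd4l, a kinase and a ubiquitin ligase that set carrier abundance at the membrane, were at -2.83 and -3.27. The scaffold Slc9a3r1 lost its call without preparation 2 or 3 (adjusted p = 0.0749 and 0.0616) and without the Six2-low library of preparation 2 or 3 alone (0.051 and 0.0532).

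Txnip, which restrains glucose uptake by carriers such as Slc2a1, was the regulator called higher, at 697 ± 32.4 CPM in Six2-high, against 567 ± 27.4 CPM in Six2-low (log2 fold change 0.30, SE 0.11, edgeR adjusted p = 0.045). That call ended when any 1 library was left out (adjusted p = 0.0641 to 0.211) and with DESeq2's size factors (0.0559).

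Some members' counts may include reads of other genes. By the GENCODE annotation, 13 members share exon sequence positions with a gene whose level is at least 0.1 of theirs. They are Slc1a1, Slc2a12, Slc3a1, Slc5a2, Slc5a3, Slc5a6, Slc5a10, Slc6a9, Slc6a20a, Slc6a20b, Slc7a4, Slc7a7 and Slc7a10. Partner genes had 131 times the mean CPM of Slc7a10, 17.05 times that of Slc6a20b and 10.01 times that of Slc7a7. For Slc2a12, Slc5a2 and Slc3a1 the factors were 6.63, 6.53 and 3.86. Slc5a6, Slc5a10 and Slc6a9 also had a partner above their own level. Partners of Slc1a1, Slc5a3, Slc6a20a and Slc7a4 were below them. The sources used here do not state whether counting used strand. Slc6a20a shares 15.3% of its 50-base stretches with Slc6a20b, and Slc6a20b shares 7.24% of its own with Slc6a20a. Slc5a6 shares 13.6% of its own with the gene Gm6157. How many reads came from other genes was not measured, so the values of these genes are uncertain by an unknown amount.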

How the data were processed

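RNA from 3 Six2-high and 3 Six2-low libraries was measured as counts per gene. The deposited counts were made by the authors from reads against mm10, with TopHat2 2.1.0, TopHat, SAMtools, HTSeq 0.6.1p1 and DESeq2 named, without their roles, per the submitters' processing notes; annotation and strand setting: not given in the sources used here. A deposited normalised table was not used here, and some single genes are not reported here. Counts were fitted for all genes with edgeR 4.0.16 (R 4.3.3: filterByExpr, TMM scaling, quasi-likelihood F test, two-sided, Benjamini-Hochberg over 15347 genes). CPM use TMM-scaled library totals, and RPKM divides them by the GENCODE M21 merged exon length (GRCm38). With 23535399 to 29791421 counts per library, 1 count is 0.0323 to 0.0491 CPM. SE is that of the log2 fold change.

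Preparation tags in the titles pair the libraries: deviations from the fraction means correlated by 0.37, 0.42 and 0.33 within preparations 1, 2 and 3. The fit without the block is the one reported. Alternatives were DESeq2 1.42.0, its size factors, other filters, the block, removal of Rn45s and Lars2, and leaving out libraries or preparations. Replicate libraries differed beyond counting noise. The fit was tested on simulated data, in which 50 of 15347 genes were changed at each size of change. In the real data 50.1% of all genes tested were called, so recovery there may differ. On the simulated data the fit recovered 26% of 1.5-fold, 72% of 2-fold and 98% of 4-fold changes. A member not called may therefore still differ by a small factor.

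Members, role groups and gene lists were chosen with earlier results of these data known. Per family, the member with the highest CPM and up to 2 called genes with the largest change each way (at least 1 CPM) are named, together with Slc2a1, Slc7a5, Slc3a2, Slc1a5, Slc7a11 and Slc38a2; others are named where their group is described. Exon sharing and 50-base stretches shared between genes were read from GENCODE M21, and promoter windows from RefSeq GRCm38.p6.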

Additional observations from a re-analysis of the deposited data

How the results depend on the processing

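Of the members called, 6 of the 11 higher and 34 of the 40 lower kept their call in every alternative that tested them, and none changed sign. There were 15 alternatives, of which Slc6a11 was tested in 12 and Slc6a7, Slc6a12, Slc6a20a and Slc7a10 in 14. The calls that ended in some alternative were those of Slc6a17, Slc7a1, Slc7a5, Slc7a6 and Slc7a6os among the higher, and Slc2a5, Slc38a6, Slc3a2, Slc5a10, Slc6a7 and Slc7a3 among the lower. With preparation as a replicate block, 43 members were lower and 13 higher, and 5059 and 4860 of all genes. When 1 library or 1 preparation was left out, 34 to 41 members were lower and 6 to 10 higher, 1329 to 3183 of all genes were higher, and the members' median log2 fold change ran between -1.01 and -0.75. The median was -1.02 with DESeq2. Members called higher numbered 7 without the Six2-low library of preparation 3 and 6 without preparation 2 or 3, and all genes called higher 2160 without the Six2-low library of preparation 2, 2086 without preparation 2 and 1329 without preparation 3. Fewer libraries entered these fits. Slc36a1, not called, was at 0.59 without the Six2-high library of preparation 1 and at -0.039 without that of preparation 2. Slc5a6, not called, was at -0.28 without preparation 1, 0.045 without the Six2-high library of preparation 3, 0.0089 without preparation 2 and 0.02 without preparation 3, and the cause was not tested. The 14 members not tested had at most 30 counts each over all libraries.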
